A study of Mus musculus with 8 samples.

Results

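The 35 genes described here are stimulated by type I interferon, the cytokine family that puts cells into an antiviral state. They were taken by name from the 55492 genes of the series, each matched by the gene name given in the deposited tables, and all 35 were found. The data are polyA RNA sequencing of 8 libraries of Yumm5.2, a mouse melanoma cell line of strain C57B/6J as the labels give it. In 4 libraries the cells had received the reagent control DMSO, and in the other 4 they had received 4-OI, described in the labels as permeable itaconate. The abbreviation is used in this field for 4-octyl itaconate, an ester of a metabolite that activated macrophages make. Both groups were cultured for 20 h, at a dose of 4-OI not given in the sources used here. Every library is of this one line, and the labels name no interferon, virus or plain itaconate in either group. The comparison shows how the level of each gene in cells given 4-OI stood against that in cells given DMSO.

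Total counts were between 22962963 and 31361677 per library, and 13531 genes had enough counts to be tested. Levels are given as CPM, counts scaled to the library's total after TMM normalisation, or, where genes are set against each other, as TPM, which accounts for transcript length. Each gene was tested with edgeR's quasi-likelihood test, and called higher or lower when its Benjamini-Hochberg adjusted p, over all 13531 genes, was under 0.05. The labels speak of separate experiments but name no separate cultures, so these p-values measure only the spread between the libraries, which may be technical. Of 7 melanocyte markers only Mitf passed the filter, at 6.07 to 7.03 CPM with DMSO and 9.47 to 10.6 CPM with 4-OI, while Sox10, Pmel, Tyr, Tyrp1, Dct and Mlana stayed at or under 0.351 CPM in every library. The pigment genes that define a melanocyte were thus near or at 0 in these libraries.

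Type I interferons bind the receptor of IFNAR1 and IFNAR2, whose kinases JAK1 and TYK2 phosphorylate STAT proteins. STAT2 and IRF9 are parts of a complex that binds the interferon-stimulated response element, or ISRE, in the promoters of its target genes. Many cells hold a low level of these transcripts without added interferon, and several of the products are themselves sensors or signalling factors, so that the response can feed itself. The products fall into effectors that block viral replication, sensors of foreign RNA, enzymes that attach ADP-ribose or ubiquitin, and the ubiquitin-like protein ISG15 with its enzymes.

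RefSeq promoter windows (GRCm38.p6, 250 bases before to 50 after the gene's start) were given for 25 of the 35 genes, some with more than 1 window. The ISRE core, searched on both strands as GAAA, any 2 bases and GAAA again, with overlapping matches counted, was in a window of 12 of these 25 genes (48%) and of 1079 of all 27025 genes with a window (3.99%). The gamma-activated sequence TTCNNNGAA, bound by STAT dimers, was in 5 of 25 (20%) against 9.55% of all genes with a window. The antioxidant response core TGACNNNGC, bound by NRF2, was in 5 of 25 (20%) against 14%. The ISRE stands in windows of Ifit1, Ifit3, Ifit3b, Oas1a, Oas3, Rsad2, Bst2, Eif2ak2, Ddx58, Ifih1, Isg15 and Trim30a. The log2 fold changes (4-OI against DMSO) of the 11 tested genes with it, -2.77 to -0.02, overlapped those of the 13 tested genes with a window but no match, -1.95 to 0.21. A match is a description of the letters, and no match says only that they are not in this window.

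The 200 bases before the start are shown 5′ to 3′ on the gene's own strand for 8 genes whose values are described below, with the ISRE core in capitals. Where the motif lies on the other strand it reads as its reverse complement. Isg15 (chr4:156200819-156201018, minus strand) is shown for its 3 overlapping matches, and Bst2 (chr8:71537473-71537672, minus strand) as another abundant member with 2. Ifit1 (chr19:34640689-34640888, plus strand), Ifit3 (chr19:34583329-34583528, plus strand) and Ifit3b (chr19:34607757-34607956, plus strand) are members of one gene cluster. Rsad2 (chr12:26456453-26456652, minus strand) and Cmpk2 (chr12:26469015-26469214, plus strand) are neighbours transcribed away from each other, of which the first has a match and the second none. Trim25 (chr11:88999203-88999402, plus strand) is the member that rose.
Isg15: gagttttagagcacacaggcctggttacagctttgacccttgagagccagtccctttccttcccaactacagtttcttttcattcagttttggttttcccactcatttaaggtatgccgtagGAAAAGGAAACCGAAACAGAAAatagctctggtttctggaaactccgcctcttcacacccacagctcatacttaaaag
Bst2: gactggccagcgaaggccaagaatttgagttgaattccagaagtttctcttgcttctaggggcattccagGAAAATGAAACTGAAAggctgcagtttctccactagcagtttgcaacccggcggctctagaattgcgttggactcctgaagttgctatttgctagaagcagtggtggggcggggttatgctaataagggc
Ifit1: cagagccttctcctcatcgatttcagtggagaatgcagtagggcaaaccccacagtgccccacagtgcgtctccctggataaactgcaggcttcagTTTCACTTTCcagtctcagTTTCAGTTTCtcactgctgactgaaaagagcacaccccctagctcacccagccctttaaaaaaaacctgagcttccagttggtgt
Ifit3: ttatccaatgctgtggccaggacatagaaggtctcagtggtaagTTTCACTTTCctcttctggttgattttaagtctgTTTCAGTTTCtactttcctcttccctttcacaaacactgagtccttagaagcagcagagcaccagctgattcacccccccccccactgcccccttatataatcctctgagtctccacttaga
Ifit3b: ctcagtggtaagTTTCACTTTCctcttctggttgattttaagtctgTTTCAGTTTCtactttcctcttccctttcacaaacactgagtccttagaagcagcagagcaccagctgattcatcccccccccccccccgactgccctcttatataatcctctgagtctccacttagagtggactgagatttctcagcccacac
Rsad2: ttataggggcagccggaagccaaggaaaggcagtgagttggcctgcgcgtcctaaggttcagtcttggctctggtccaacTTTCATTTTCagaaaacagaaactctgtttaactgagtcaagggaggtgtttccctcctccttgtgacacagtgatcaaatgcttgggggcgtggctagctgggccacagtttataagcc
Cmpk2: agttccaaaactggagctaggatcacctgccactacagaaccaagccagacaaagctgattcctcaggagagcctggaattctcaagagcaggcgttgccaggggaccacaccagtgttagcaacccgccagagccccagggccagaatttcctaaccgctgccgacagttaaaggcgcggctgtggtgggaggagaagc
Trim25: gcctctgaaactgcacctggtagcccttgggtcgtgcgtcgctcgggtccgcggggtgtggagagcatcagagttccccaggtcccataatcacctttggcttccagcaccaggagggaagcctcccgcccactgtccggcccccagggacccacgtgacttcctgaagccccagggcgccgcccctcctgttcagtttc
The full windows of Ifit3 and Ifit3b were 75% identical over 268 bases when laid against each other with an offset of 32 bases and no gaps, and the same pair of ISRE cores stands in both.

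The interferon-stimulated genes were lower with 4-OI in nearly every case. Among the 27 members with a mean of at least 1 CPM over all 8 libraries, 23 were lower and 1, Trim25, was higher, where 21.2% of the 11960 genes at that level were called lower. Their median log2 fold change was -0.82, beside 0.00 over those 11960 genes, and in 22 of the 27 every 4-OI library lay below every DMSO library. Eif2ak2, Oasl1 and Herc6 were the 3 that were not called. Over all 33 members past the filter, 29 were lower and Trim25 higher, beside 19.6% of 13531 genes called lower, 19.3% called higher and 38.8% called in either direction. By at least 2-fold, 15 were lower (0.754% of all genes), and 28 had every 4-OI library below every DMSO library (18% of all genes). The median was -0.94, beside 0.00 over all genes. Ifit3b, Oas3, Mx2, Usp18, Trim30a and Ifi44 had low counts and reached the filter's level in every DMSO library but not in every 4-OI library. Such genes are said here to have passed only through DMSO. This selection favours genes that are lower with 4-OI, so the counts over 33 are given as a description only. Oas1a and Oas2 did not pass the filter.

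The summed TPM of the 35 members had a mean of 362 with an SD of 9.996 over the 4 DMSO libraries and a mean of 244 with an SD of 4.07 over the 4 with 4-OI. The DMSO libraries spanned 348.9 to 373 TPM and the 4-OI libraries 240.1 to 248 TPM, with no overlap. Isg15, Bst2 and Ifi27 made up 41.3% to 45.6% of that sum with DMSO and 39.4% to 41.6% with 4-OI. In bulk RNA, fewer cells that express a gene and less RNA of it per cell cannot be told apart.

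**Figure D1:**
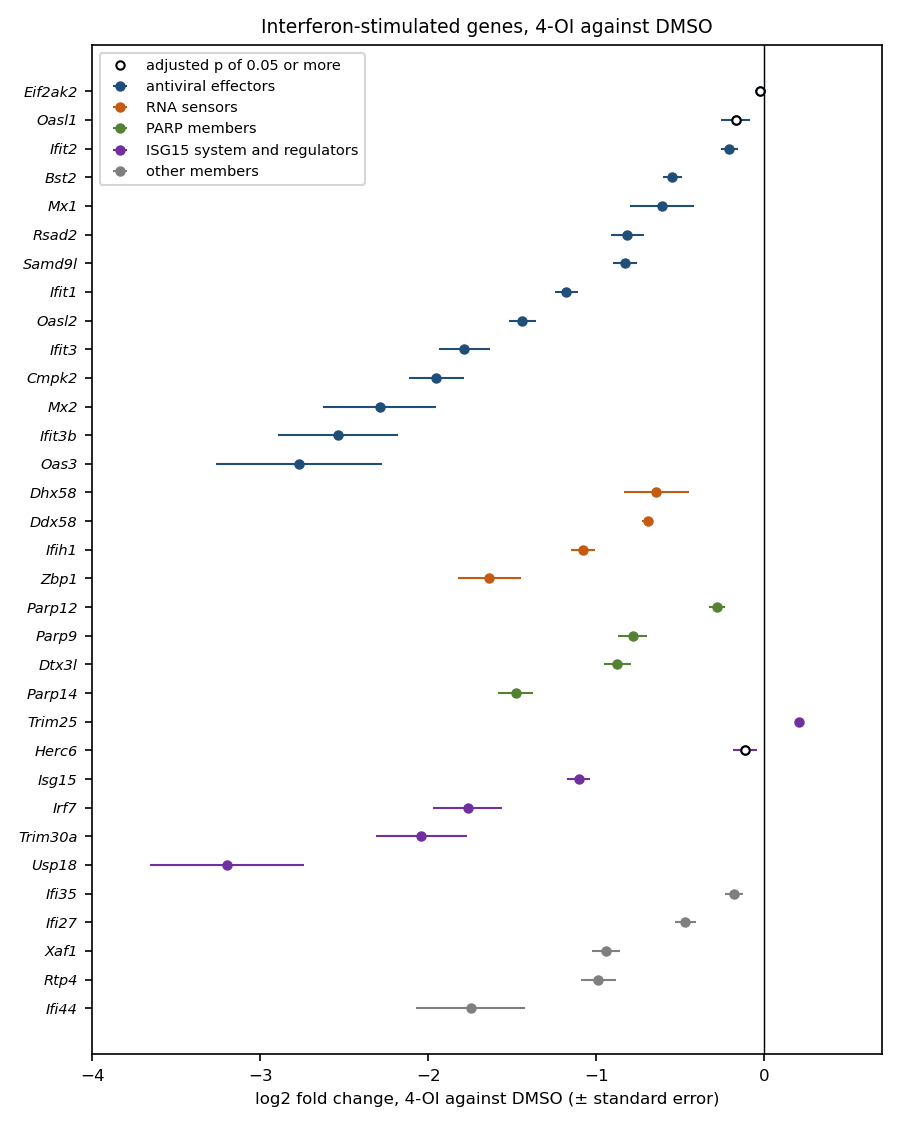
Log2 fold change, 4-OI against DMSO, of the 33 tested interferon-stimulated genes (rows, coloured by role), with bars of the standard error. Filled points are called genes and open points are not called. Every point but that of Trim25 lies below 0, from -0.02 for Eif2ak2 to -3.20 for Usp18.

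Antiviral effectors were the largest set of members, 16 genes, of which 14 were tested and 12 were lower, beside 19.6% of all genes. Without Ifit3b, Oas3 and Mx2, which passed the filter only through DMSO and were thus favoured to be lower, 9 of 11 were lower. Bst2 encodes tetherin, which holds budding virus particles on the cell surface. It was the most abundant effector at 52.6 ± 4.12 TPM (SD, n = 4) with DMSO (chromosome 8, 71534255 to 71537456, GRCm38). Its 4 DMSO libraries had 17.4, 18.0, 20.3 and 20.0 CPM and its 4-OI libraries 13.0, 13.3, 12.4 and 13.0 CPM. The groups did not overlap, and the log2 fold change was -0.55 (SE 0.06, edgeR adjusted p = 2.51e-07). Eif2ak2 encodes PKR, the kinase that stops translation when it binds double-stranded RNA, and lies at chromosome 17, 78852564 to 78882573. It had 58.6, 56.5, 57.9 and 56.0 CPM with DMSO and 58.6, 56.6, 55.3 and 54.5 CPM with 4-OI. The libraries of both groups were interleaved, and the log2 fold change was -0.02 (SE 0.03, edgeR adjusted p = 0.588).

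Of the IFIT proteins, IFIT1 binds viral RNA ends that lack the host's cap methylation and blocks their translation. The fold changes within the Ifit cluster on chromosome 19 ran from -0.21 to -2.54 on the log2 scale. Ifit2 (chromosome 19, 34550694 to 34576419) had 27.2, 29.6, 28.8 and 29.0 CPM with DMSO and 25.7, 23.4, 23.5 and 26.6 CPM with 4-OI, and its log2 fold change was -0.21 (SE 0.05, edgeR adjusted p = 0.00237). Ifit1 (chromosome 19, 34640871 to 34650009) was at 15.0, 16.6, 18.0 and 16.8 CPM and 7.88, 6.70, 6.96 and 7.73 CPM, a log2 fold change of -1.18 (SE 0.07, edgeR adjusted p = 3.87e-11). All 4-OI libraries lay below all DMSO libraries for both genes, by a small margin for Ifit2 and by more than 2-fold on average for Ifit1. Ifit3 (chromosome 19, 34583531 to 34588731) had a log2 fold change of -1.78 (SE 0.15, edgeR adjusted p = 1.16e-08), with 3.90 ± 0.4996 CPM (SD, n = 4) under DMSO and 1.13 ± 0.189 CPM under 4-OI. Ifit3b (chromosome 19, 34607970 to 34613401), with counts of 24, 18, 18 and 32 under DMSO and 7, 2, 6 and 2 under 4-OI, had the log2 fold change -2.54 (SE 0.36, edgeR adjusted p = 1.04e-05). Ifit3 and Ifit3b are near copies: 41.1% of the 75-base stretches of Ifit3 transcripts also occur in Ifit3b, and 35.7% of those of Ifit3b in Ifit3. How their reads were divided is therefore uncertain, and so are their separate levels.

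The OAS family makes short oligoadenylates that switch on the RNA-cutting enzyme RNase L, and its members differed. Oas3 (chromosome 5, 120753098 to 120777661) had counts of 14, 11, 13 and 14 with DMSO and 0, 5, 1 and 2 with 4-OI. Its log2 fold change was -2.77 (SE 0.49, edgeR adjusted p = 0.000149), a fitted value that depends on the prior count at such levels, and the count of 0 allows up to 0.117 CPM at 3 counts. Oas1a had counts of 0, 4, 1 and 2 with DMSO and 0, 1, 0 and 0 with 4-OI, and Oas2 had 1, 1, 1 and 0 and 0, 0, 0 and 0. Both were below the filter, no difference was detectable at this depth (two-sided exact permutation p = 0.143 for each, and 0.5 adjusted over the 21 low genes tested in this way), and 47.6% of the 75-base stretches of Oas1a also occur in Oas1g. Of the OAS-like neighbours, Oasl2 (chromosome 5, 114896936 to 114912234) had 11.6, 11.1, 13.1 and 11.8 CPM with DMSO and 4.56, 4.93, 3.99 and 4.07 CPM with 4-OI, a log2 fold change of -1.44 (SE 0.08, edgeR adjusted p = 1.97e-11). Oasl1 (chromosome 5, 114923240 to 114937915), which is known to hold back translation of Irf7, had 7.24, 6.03, 7.16 and 7.53 CPM and 6.26, 5.57, 6.36 and 6.70 CPM. Its groups overlapped, and the log2 fold change was -0.17 (SE 0.08, edgeR adjusted p = 0.121). Without DMSO replicate 2 that gene was called lower (log2 fold change -0.23, edgeR adjusted p = 0.0401).

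The remaining effectors were all lower. Cmpk2, a mitochondrial nucleotide kinase, had 3.80 ± 0.432 CPM (SD, n = 4) with DMSO and 0.978 ± 0.216 CPM with 4-OI, a log2 fold change of -1.95 (SE 0.16, edgeR adjusted p = 8.99e-09). Its neighbour Rsad2 encodes viperin, which makes a nucleotide that ends viral RNA chains, and went from 6.12 ± 0.212 to 3.49 ± 0.462 CPM, with a log2 fold change of -0.82 (SE 0.10, edgeR adjusted p = 1.33e-06). Samd9l, an inhibitor of protein synthesis that restricts poxviruses, had the log2 fold change -0.83 (SE 0.07, edgeR adjusted p = 1.15e-08). The GTPase genes Mx1 and Mx2, whose products trap incoming viral particles and of which Mx1 is defective in many laboratory mouse strains, had 1.39 ± 0.130 and 0.793 ± 0.185 CPM (SD, n = 4) with DMSO. The log2 fold change of Mx2 was -2.29 (SE 0.34, edgeR adjusted p = 1.77e-05), and that of Mx1 was -0.61 (SE 0.19, edgeR adjusted p = 0.0153). The call of Mx1 ended without DMSO replicate 1 (edgeR adjusted p = 0.0509), with DESeq2 (adjusted p = 0.0502) and on log2(TPM + 1) with limma (adjusted p = 0.182).

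**Figure D2:**
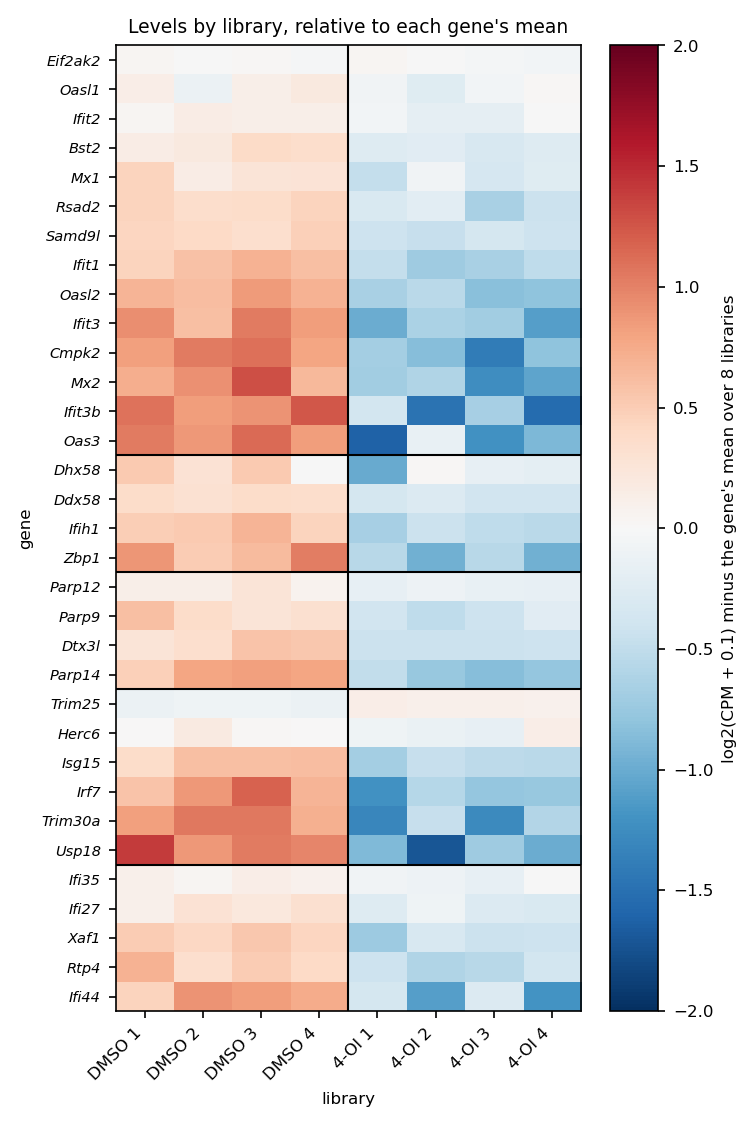
Level of each of the 33 tested members (rows, by role) in each of the 8 libraries (columns), as log2(CPM + 0.1) minus that gene's mean over the libraries. Red is above and blue below the mean; in 28 genes every 4-OI library is below every DMSO library, and Trim25 shows the reverse.

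The 4 RNA sensors were all lower, beside 19.6% of all genes. Ddx58, the gene of RIG-I, which detects short RNA with a triphosphate end, was the most abundant (chromosome 4, 40203773 to 40239828), at 68.9, 65.9, 69.2 and 68.7 CPM with DMSO and 41.9, 44.2, 41.3 and 41.2 CPM with 4-OI. Every 4-OI library lay far under every DMSO library, and the log2 fold change was -0.70 (SE 0.03, edgeR adjusted p = 1.76e-12). Ifih1 (chromosome 2, 62595798 to 62646255), which encodes MDA5, the detector of long double-stranded RNA, had 12.9, 13.2, 14.7 and 12.5 CPM and 5.72, 6.74, 6.39 and 6.22 CPM. Its log2 fold change was -1.08 (SE 0.07, edgeR adjusted p = 1.98e-10), and the groups stood well apart. Zbp1 (chromosome 2, 173206612 to 173218923), a sensor of Z-form nucleic acid that can start necroptosis, had 2.78, 2.12, 2.33 and 3.08 CPM and 0.966, 0.709, 0.965 and 0.705 CPM, a log2 fold change of -1.64 (SE 0.19, edgeR adjusted p = 6.23e-07). Dhx58 encodes LGP2, a relative of RIG-I that lacks its signalling domains, and was the sensor whose groups overlapped. It had 2.86, 2.41, 2.85 and 1.96 CPM with DMSO and 0.927, 1.99, 1.73 and 1.699 CPM with 4-OI, where replicate 2 with 4-OI lay just above replicate 4 with DMSO. Its log2 fold change was -0.64 (SE 0.19, edgeR adjusted p = 0.0123), a call that ended on log2(TPM + 1) with limma (adjusted p = 0.0759).

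The PARP members, 3 ADP-ribosyltransferase genes and the ubiquitin ligase gene Dtx3l, were also all lower (19.6% of all genes), without overlap between groups (18%). Parp12, whose product adds single ADP-ribose units and acts against several RNA viruses, was the most abundant (chromosome 6, 39086410 to 39118349). It had 25.8, 26.0, 28.6 and 25.1 CPM with DMSO and 21.4, 22.4, 21.6 and 21.4 CPM with 4-OI, a log2 fold change of -0.28 (SE 0.05, edgeR adjusted p = 0.000111). Parp14 (chromosome 16, 35832874 to 35871544), another such enzyme with macrodomains that bind ADP-ribose, had 6.44, 7.99, 8.12 and 8.01 CPM and 3.21, 2.66, 2.50 and 2.63 CPM. That was the largest change of the set, 2.79-fold lower, with a log2 fold change of -1.48 (SE 0.10, edgeR adjusted p = 6.22e-10). Parp9 and Dtx3l form a complex that ubiquitinates histones and viral proteins, and their genes overlap on opposite strands (chromosome 16, 35938470 to 35972605 and chromosome 16, 35926511 to 35939151). Parp9 had 11.05, 9.36, 8.69 and 9.04 CPM with DMSO and 5.53, 5.07, 5.39 and 6.16 CPM with 4-OI, a log2 fold change of -0.78 (SE 0.09, edgeR adjusted p = 4.42e-07). Dtx3l had 8.38, 8.82, 10.4 and 10.2 CPM and 5.14, 5.18, 5.13 and 5.19 CPM, a log2 fold change of -0.88 (SE 0.08, edgeR adjusted p = 4.64e-08). With the strand setting of the counting not given in the sources used here, reads from where these genes overlap may not be told apart.

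Set beside each other, the effectors, sensors and PARP members had overlapping ranges and no stable order of their medians. The median log2 fold change was -1.005 over the 14 tested effectors (range -2.77 to -0.02), -0.89 over the 4 sensors (-1.64 to -0.64) and -0.83 over the 4 PARP members (-1.48 to -0.28). Lower by at least 2-fold were 7 effectors, 2 sensors and 1 PARP member, beside 0.754% of all genes. Of the 7 effectors at least 2-fold lower, 3 (Ifit3b, Oas3 and Mx2) passed the filter only through DMSO, which favours genes that are lower. Over the 11 tested effectors without these 3 the median was -0.82. The effectors were the set with members that were not called (Eif2ak2 and Oasl1). On log2(TPM + 1) the order of the medians was another, with -0.54 for effectors, -0.57 for PARP members and -0.69 for sensors. The smallest changes were those of the abundant Eif2ak2 among the effectors and Parp12 among the PARP members, while among the sensors it was Dhx58, at a low level. Counting Eif2ak2, Oas1a, Oas2, Oas3 and Trim25, which bind double-stranded RNA or act on a sensor, with the RNA sensors gave that set a median of -0.70. Summed over the set, the effectors had 123 ± 6.70 TPM (SD, n = 4) with DMSO and 84.0 ± 2.53 TPM with 4-OI, the sensors 39.8 ± 1.01 and 22.7 ± 0.422 TPM, and the PARP members 22.4 ± 1.05 and 15.6 ± 0.227 TPM. These are descriptions, since genes are not replicates and no difference between the sets was tested.

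In the ISG15 system, Isg15 itself, the ubiquitin-like modifier, had the highest TPM of all 35 members with DMSO, 59.5 ± 4.85 (SD, n = 4), and 27.9 ± 1.502 TPM with 4-OI, under Bst2, Ifi27 and Trim25 (chromosome 4, 156199424 to 156200818). The libraries had 15.4, 18.3, 18.2 and 18.5 CPM with DMSO and 7.46, 8.69, 8.32 and 8.21 CPM with 4-OI, a log2 fold change of -1.10 (SE 0.07, edgeR adjusted p = 8.2e-11). DMSO replicate 1 was the lowest of its group and still far above every 4-OI library. Usp18 (chromosome 6, 121245906 to 121270917), which removes ISG15 from proteins and blocks the interferon receptor, had the largest fold change of the members, at a low level. Its counts were 20, 12, 13 and 17 with DMSO and 2, 0, 3 and 2 with 4-OI, and the fitted log2 fold change was -3.20 (SE 0.46, edgeR adjusted p = 1.27e-05). The 4-OI counts were at or under 3 per library, where the fitted fold depends on the prior count. Herc6 (chromosome 6, 57581000 to 57664632), the main ISG15 ligase of the mouse, had 10.3, 11.6, 10.4 and 10.3 CPM with DMSO and 9.62, 9.29, 9.09 and 11.2 CPM with 4-OI. Its groups overlapped through 4-OI replicate 4, and the log2 fold change was -0.12 (SE 0.07, edgeR adjusted p = 0.22). Without that replicate the gene was called lower (log2 fold change -0.19, edgeR adjusted p = 0.0352), and 11.3% of its 75-base stretches occur in other genes. The enzymes that activate and carry ISG15, which are not among the 35, were Uba7 with a log2 fold change of -1.02 (SE 0.22, edgeR adjusted p = 0.00115) and Ube2l6 with -0.33 (SE 0.05, edgeR adjusted p = 3.32e-05). The call of Uba7, at 1.39 ± 0.232 CPM (SD, n = 4) with DMSO, ended on log2(TPM + 1) with limma (adjusted p = 0.182).

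Among the regulators, Trim25 was the one member that rose. It encodes the ubiquitin ligase that promotes RIG-I signalling and lies at chromosome 11, 88999376 to 89020293. The DMSO libraries had 64.1, 65.6, 65.7 and 63.9 CPM and the 4-OI libraries 76.3, 74.5, 75.1 and 73.7 CPM, so that every 4-OI library was higher. The log2 fold change was 0.21 (SE 0.03, edgeR adjusted p = 6.73e-06), a small rise of 1.16-fold. Irf7, the factor that amplifies interferon production, had 1.83, 2.29, 2.85 and 1.99 CPM with DMSO and 0.464, 0.780, 0.666 and 0.673 CPM with 4-OI, a log2 fold change of -1.77 (SE 0.21, edgeR adjusted p = 9.98e-07). Trim30a (chromosome 7, 104409025 to 104465193), which dampens Toll-like receptor signalling, had 1.18, 1.41, 1.40 and 1.09 CPM and 0.193, 0.425, 0.200 and 0.385 CPM, a log2 fold change of -2.04 (SE 0.27, edgeR adjusted p = 5.13e-06). The 6 genes of this set ranged from -3.20 to 0.21 on the log2 scale, with a median of -1.44. Usp18 and Trim30a passed the filter through DMSO only, and over the other 4 genes, Isg15, Herc6, Trim25 and Irf7, the median was -0.61.

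The other members were 5 genes with mixed or less known roles. All 5 were lower (19.6% of all genes) and without overlap between groups (18% of all genes). Ifi44 passed the filter only through DMSO, which favours genes that are lower, and without it 4 of 4 were lower. Ifi27 encodes a small hydrophobic membrane protein and was abundant, at 47.3 ± 4.61 TPM (SD, n = 4) with DMSO (chromosome 12, 103434211 to 103440239). Its libraries had 16.4, 18.6, 17.7 and 19.1 CPM with DMSO and 12.8, 14.4, 12.6 and 12.3 CPM with 4-OI, a log2 fold change of -0.47 (SE 0.06, edgeR adjusted p = 4.27e-06). Ifi35 (chromosome 11, 101448407 to 101458698), a leucine zipper protein, had 13.1, 12.5, 13.4 and 13.0 CPM and 11.6, 11.3, 10.9 and 12.1 CPM, a log2 fold change of -0.18 (SE 0.06, edgeR adjusted p = 0.0137), which DESeq2 did not call (adjusted p = 0.0647). These abundant genes changed by less than the rarer ones of the set. Rtp4 (chromosome 16, 23520291 to 23614222), a chaperone of cell surface receptors that also restricts flaviviruses, had 7.31, 5.66, 6.41 and 5.90 CPM and 3.32, 2.91, 3.03 and 3.46 CPM, a log2 fold change of -0.99 (SE 0.10, edgeR adjusted p = 2.02e-07). Ifi44 (chromosome 3, 151730922 to 151749960) had 0.609, 0.874, 0.834 and 0.769 CPM and 0.309, 0.142, 0.333 and 0.128 CPM, a log2 fold change of -1.75 (SE 0.33, edgeR adjusted p = 0.000235), a call that ended on log2(TPM + 1) with limma (adjusted p = 0.126). Xaf1, which promotes cell death by opposing the inhibitor XIAP, had the log2 fold change -0.94 (SE 0.08, edgeR adjusted p = 1.8e-08).

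Members with a low level tended to have the larger fold changes. The 6 members that passed the filter only through DMSO all had under 2 TPM on average over the 8 libraries and had to differ, so they are left aside here. Of the others, the 6 under 2 TPM (Rsad2, Mx1, Cmpk2, Dhx58, Parp14 and Irf7) had a median log2 fold change of -1.15, the 12 at 2 to 10 TPM one of -0.96 and the 9 at 10 TPM or more one of -0.28. Over all genes tested the medians in the same ranges were -0.02, 0.02 and -0.001. Spearman's rho between mean TPM and log2 fold change was 0.49 over these 27 members. This is a description across genes of the same 8 libraries, with the level and the fold taken from the same counts. Isg15, among the most abundant and 2.15-fold lower, stood apart from this order.

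**Figure D3:**
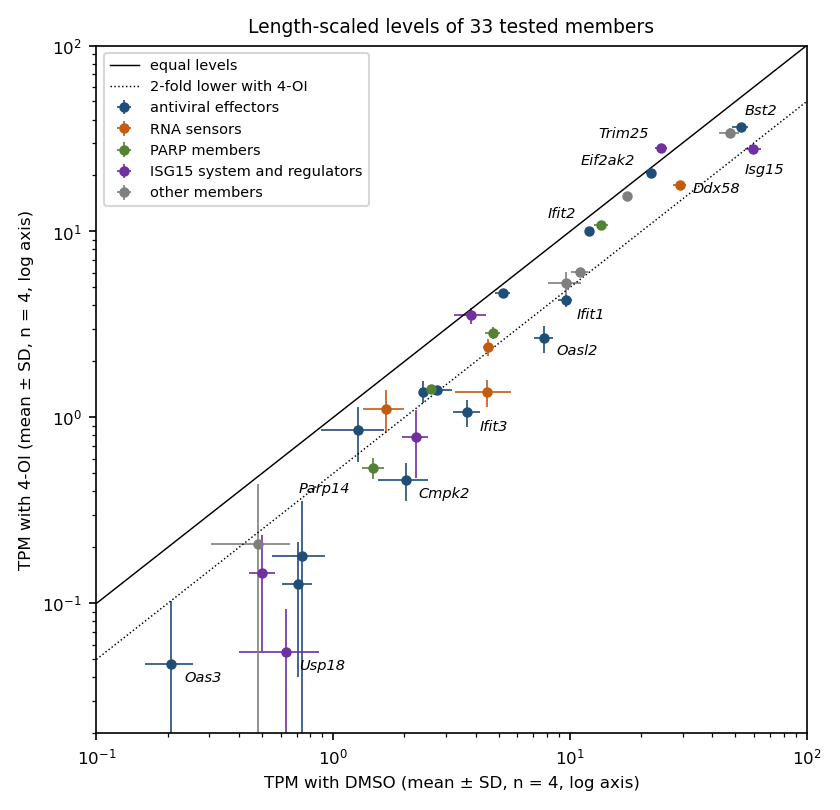
Mean TPM of the 33 tested members with DMSO (horizontal) and with 4-OI (vertical), on log axes, with bars of 1 SD over 4 libraries; bars that reach 0 leave the axis. The solid line marks equal levels and the dotted line a 2-fold lower level with 4-OI. Trim25 lies above the solid line and Eif2ak2 close under it, while Isg15 lies under the dotted line.

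Most neighbouring members changed by different amounts. The within-library log2 ratio of the counts of neighbours, each plus 0.5, was compared for the 8 pairs of members that follow each other within 100 kb, a comparison chosen after the values had been seen. In 6 of the 8 pairs every 4-OI ratio lay on one side of every DMSO ratio (two-sided exact permutation p = 0.0286, the smallest that 4 against 4 libraries allow, and 0.0381 adjusted over the 8 pairs). Of these 6, Mx1 with Mx2 and Ifit3b with Ifit1 hold a gene that passed the filter only through DMSO, and without such genes it was 4 of 5 pairs. Neighbours outside the members were not compared, so no share over neighbouring genes in general stands beside these counts. The pairs share genes, Ifit3, Ifit3b and Dtx3l among them, and are not separate results. Their p-values describe differences that had already been seen. The ratio of Rsad2 to Cmpk2, which lie 12752 bases apart and are transcribed away from each other, went from 0.69 ± 0.21 to 1.84 ± 0.21 on the log2 scale (SD, n = 4). Ifit2 against Ifit3 went from 2.88 ± 0.22 to 4.45 ± 0.33, and Oasl2 against Oasl1 from 0.77 ± 0.12 to -0.50 ± 0.25. Parp14 against Dtx3l went from -0.31 ± 0.11 to -0.91 ± 0.16. In these pairs the gene named first kept more of its level for Rsad2 and Ifit2 and less of it for Oasl2 and Parp14. The overlapping genes Dtx3l and Parp9 had ratios of -0.01 ± 0.30 and -0.10 ± 0.11 (exact permutation p = 0.629), and Ifit3 and Ifit3b, which share reads, had 2.14 ± 0.23 and 2.96 ± 0.95 (exact permutation p = 0.2, adjusted p = 0.229).

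The pathway around the members was followed in a list of 84 further genes, of which 56 were tested, 33 were lower (58.9%, beside 19.6% of all genes) and 6 were higher (10.7%, beside 19.3%), and the median log2 fold change was -0.21. No ligand passed the filter. Of 11 interferon genes 9 were at 0 counts in every library, Ifnb1 of interferon beta among them, which allows up to 0.0957 to 0.131 CPM per library at 3 counts. Ifne and Ifnz had mean levels under 0.15 CPM in both groups (two-sided exact permutation p = 0.343 and 0.771, adjusted p = 0.709 and 0.988 over the 21 low genes). Intervals and floors of this kind cover counting error only.

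Of the receptor and JAK-STAT genes 7 of 11 were lower (63.6%, beside 19.6% of all genes), and Stat2 and Irf9 of the ISRE-binding complex were among them. Stat2 (chromosome 10, 128270559 to 128292849) had 24.0, 23.9, 23.4 and 23.9 CPM with DMSO and 18.3, 17.2, 18.4 and 16.1 CPM with 4-OI, a log2 fold change of -0.45 (SE 0.05, edgeR adjusted p = 5.92e-07). Irf9 (chromosome 14, 55603571 to 55610030) had 10.1, 9.90, 11.8 and 10.5 CPM and 6.84, 6.63, 6.56 and 6.44 CPM, a log2 fold change of -0.67 (SE 0.07, edgeR adjusted p = 2.02e-07). The groups did not overlap for either gene. Irf1, a related factor that binds much the same element, fell from 56.2 ± 0.559 to 41.4 ± 1.14 CPM (SD, n = 4), a log2 fold change of -0.44 (SE 0.03, edgeR adjusted p = 1.5e-09). The receptor chain gene Ifnar1 (chromosome 16, 91485238 to 91507441) was lower by a small amount, 72.4 ± 0.980 against 66.7 ± 1.81 CPM, with a log2 fold change of -0.12 (SE 0.03, edgeR adjusted p = 0.00363). Its partner Ifnar2 had 37.1 ± 1.53 and 36.5 ± 1.43 CPM, a log2 fold change of -0.02 (SE 0.04, edgeR adjusted p = 0.691). Jak1 was not called either (log2 fold change -0.05, edgeR adjusted p = 0.102), and the genes that rose were Socs1, a feedback inhibitor of JAK kinases (0.28), and the kinase Tyk2 (0.21). Tyk2 was not called on log2(TPM + 1) without a filter with limma (adjusted p = 0.0704). Ptpn2, counted among the lower genes (log2 fold change -0.11, edgeR adjusted p = 0.0173), lost its call on log2(TPM + 1) with limma (adjusted p = 0.115). Leaving out DMSO replicate 1 or 4-OI replicate 2 or 3 also ended that call (edgeR adjusted p = 0.0635, 0.0556 and 0.0559). Jak1, Ptpn2, Socs1 and Tyk2 are named after their values were seen.

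The list upstream of interferon held nucleic acid sensors, genes of their signalling to interferon production and Zc3hav1, whose product binds viral RNA. Of its 14 tested genes 3 were lower, 2 were higher and 9 were not called, with a median log2 fold change of 0.05. The share called lower, 21.4%, was near the 19.6% over all genes, and the share called higher was 14.3% beside 19.3%. Irf5, a factor that switches on inflammatory genes, had the log2 fold change -0.70 (SE 0.16, edgeR adjusted p = 0.00171), a call that ended on log2(TPM + 1) without a filter with limma (adjusted p = 0.102). Zc3hav1 encodes ZAP, which binds viral RNA rich in CG pairs, and had 127 ± 4.33 and 109 ± 2.93 CPM (SD, n = 4), a log2 fold change of -0.21 (SE 0.03, edgeR adjusted p = 6.76e-06). Traf3, an adaptor of these pathways, had a log2 fold change of -0.13 and the kinase gene Tbk1 one of 0.15, and both calls ended on log2(TPM + 1) with limma (adjusted p = 0.317 and 0.146). The other gene called higher was Sting1 (log2 fold change 0.11, edgeR adjusted p = 0.0426), named after its value was seen. Leaving out any of DMSO replicates 1, 3 and 4 or 4-OI replicates 1, 2 and 3 ended its call, with edgeR adjusted p from 0.0606 to 0.146, as did DESeq2 (adjusted p = 0.0849).

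Among 44 further interferon-stimulated genes outside the 35, 29 were tested, 21 were lower (72.4%, beside 19.6% of all genes), 2 were higher and 6 were not called, with a median log2 fold change of -0.34. Gbp3, a guanylate-binding protein that attacks the vacuoles of pathogens, went from 10.9 ± 0.825 to 3.68 ± 0.288 CPM (SD, n = 4), a log2 fold change of -1.57 (SE 0.08, edgeR adjusted p = 7.6e-12). Sp100, a component of nuclear bodies, had the log2 fold change -1.17 (SE 0.21, edgeR adjusted p = 0.000174), and the helicase gene Ddx60 had -1.001 (SE 0.14, edgeR adjusted p = 1.38e-05). Apol9b went from 31.8 ± 0.844 to 15.1 ± 0.409 CPM, with a log2 fold change of -1.07 (SE 0.05, edgeR adjusted p = 2.4e-13), and can share reads with its close copy Apol9a. The genes that rose were Ifi204, of the DNA-binding p200 family (0.41), and Trim12c (0.24), both named after their values were seen. Trim12c lost its call when any of DMSO replicates 1, 2 and 4 or 4-OI replicates 1 and 3 was left out, with edgeR adjusted p from 0.0686 to 0.121. It was also not called with DESeq2 (adjusted p = 0.131) or in edgeR without the filter on low counts (adjusted p = 0.0536). Of the 21 lower genes, Tor3a and Trim34a (edgeR adjusted p = 0.0436 and 0.044) also had unstable calls, and both are named after their values were seen. DESeq2 called neither (adjusted p = 0.0594 and 0.106). Leaving out DMSO replicate 3 ended both calls too (edgeR adjusted p = 0.164 and 0.0793), as did leaving out some other single libraries.

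**Figure D4:**
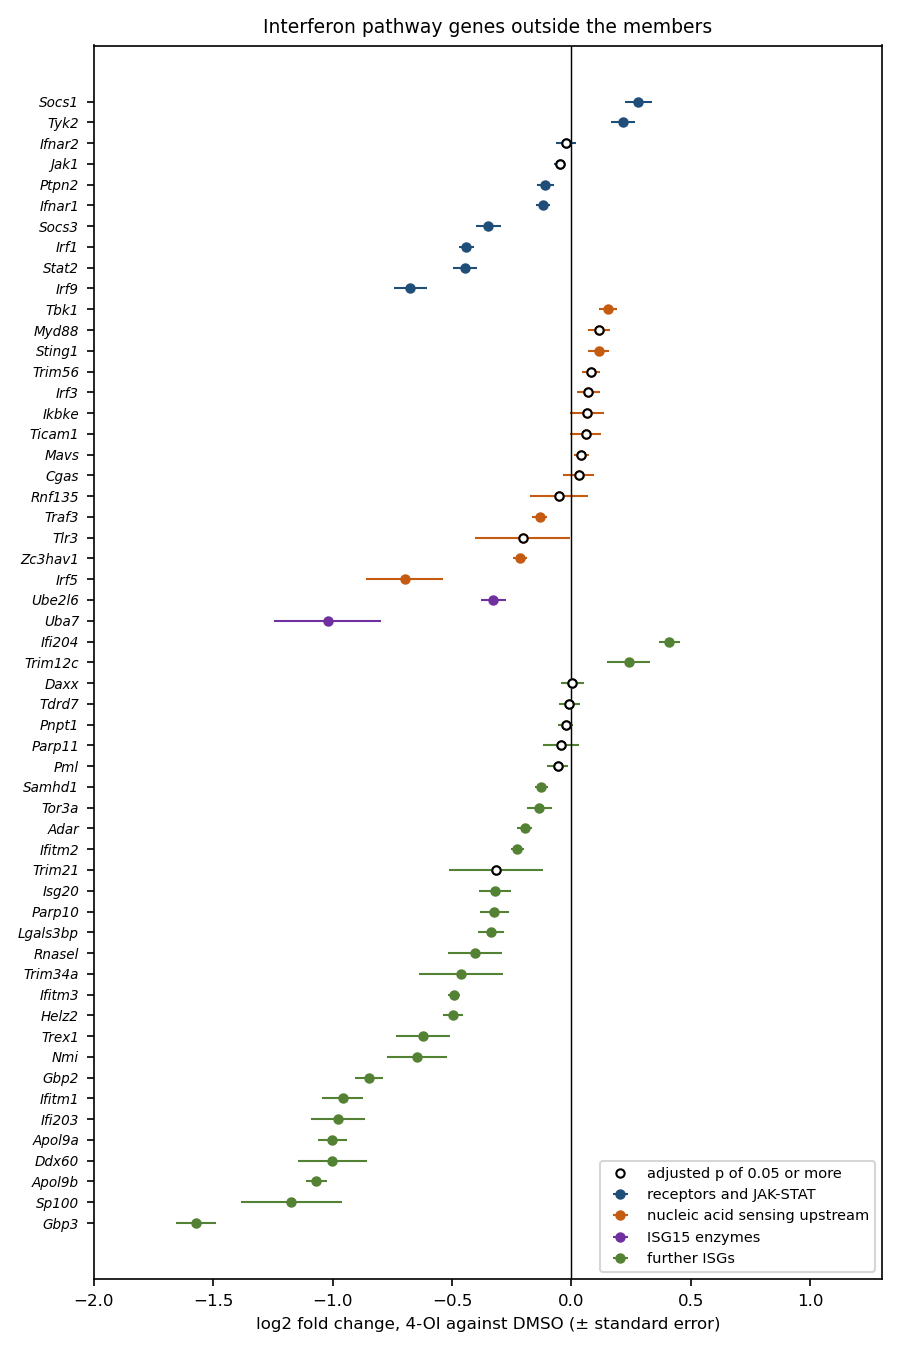
Log2 fold change, 4-OI against DMSO, of the tested pathway genes reported here outside the 35, by sub-list, with bars of the standard error. Filled points are called genes and open points are not called. The nucleic acid sensing genes gather near 0, and the further interferon-stimulated genes reach down to -1.57 for Gbp3.

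Immune cells also express these genes, and 14 of their markers were examined. Adgre1, Lyz2, Ncr1 and Clec9a had a count of 0 in every library, Ptprc (CD45) stayed at or under 0.333 CPM, and the summed level of the list was 18.1 to 19.7 CPM with DMSO and 18.6 to 20.3 CPM with 4-OI. Cd14 made up most of it, at 15.5 to 17.1 CPM, and of the 3 markers past the filter Cd14 and Cd68 were not called. Flt3 had 0.128 to 0.541 CPM with DMSO and 0.580 to 0.886 CPM with 4-OI. It reached the filter's level in every 4-OI library but not in every DMSO library, so its call as higher carries no weight. Endothelial and keratinocyte markers summed to at most 0.284 and 0.176 CPM. Of 5 fibroblast markers Col1a1 (-1.39), Dcn (-1.39) and Pdgfrb (-0.48) were lower, Pdgfra (0.10) was higher and Lum was at 0. Their part in the results for the interferon-stimulated genes was not tested.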

How the data were processed

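RNA was measured in 8 libraries, 4 with DMSO and 4 with 4-OI, grouped by their titles. Per the submitters' processing notes, STAR 2.7.8a and RSEM 1.3.3 were used with the build GRCm38, beside cutadapt 2.3, FastQC 0.11.8 and MultiQC 1.7, with no role or order given. The annotation release and strand setting were not given in the sources used here. The authors deposited expected counts per gene, RSEM estimates that divide reads shared by several genes and here hold whole numbers. The authors deposited TPM as well, which scale by transcript length. Positions come from GENCODE M21 (GRCm38), and promoters from RefSeq (GRCm38.p6).

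The expected counts were tested with edgeR 4.0.16 in R 4.3.3: filterByExpr (minimum count 10), TMM scaling and a quasi-likelihood F test (two-sided), without covariates, over all 13531 genes that passed. On simulated counts this test called 29 of 50 genes changed 1.2-fold, 43 of 50 at 1.5-fold, 43 of 50 at 2-fold and 50 of 50 at 4-fold. The standard error (SE) beside an edgeR log2 fold change is its absolute value divided by the square root of F, not a separate estimate. For genes below the filter, mean CPM was tested by exact permutation (two-sided) over 70 arrangements. Alternatives were DESeq2 1.42.0 and its size factors, library totals, no filter, log2(TPM + 1) and log2(TPM + 0.1) with limma 3.58.1, a replicate block and each library left out. The chi-square per degree of freedom between libraries of 1 group was 1.88 to 4.84, where sampling noise alone gives about 1, and each library counted once. The filter on a mean of at least 1 CPM, the medians without members that passed through DMSO only and the ratios of neighbours were added after the data had been seen.

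The members, roles and lists were chosen with earlier results of these data known. Values in every library are given for the 2 most abundant members of each role, the 2 with the largest change, those not called lower, and those below the filter. Fold changes, some with means or library values, are given for up to 4 called genes per pathway list and for Ifnb1, Stat2, Irf9, Ifnar1 and Ifnar2. Other members, and the pathway genes named after their values were seen, are given as further examples. Some genes of the lists are not reported here. Parp13 is the same gene as Zc3hav1 and was counted once. Figures were drawn with matplotlib 3.10.9.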

Additional observations from a re-analysis of the deposited data

Results flagged for a closer look

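In 7 of 101 groups of 4 libraries tested, 1 library stood further from the others than Dixon's 95% critical value allows. Chance flags about 1 in 20 for continuous values, a rate that does not hold for the single counts of Oas1a and Oas2. Oas1a had 0.0355 CPM (a single count) in 4-OI replicate 2 and 0 in the other 4-OI libraries. Oas2 had 0 in DMSO replicate 4 and a single count in each of the other DMSO libraries. Ddx58, the gene of RIG-I, had 65.9 CPM in DMSO replicate 2, below 68.7 to 69.2 CPM in the others. Parp14 had 6.44 CPM in DMSO replicate 1, below 7.99 to 8.12 CPM in the others. Isg15 was also lowest in DMSO replicate 1, at 15.4 CPM against 18.2 to 18.5 CPM. Herc6 was highest in DMSO replicate 2, at 11.6 CPM against 10.3 to 10.4 CPM. Irf1, a pathway gene outside the 35, had 43.1 CPM in 4-OI replicate 2, above 40.7 to 40.9 CPM in the others. DMSO replicates 1 and 2 and 4-OI replicate 2 each hold 2 of these values. For Ddx58, Parp14, Isg15 and Irf1 the library that stood apart was still on its own group's side of the other group.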

How the results depend on the processing

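No call, count or median of the members and pathway genes changed direction under the alternatives run. The ratios of neighbours, motif shares, relation to level and tests of low genes were not rerun under them. Of 528 values for the 33 tested members under 16 alternatives, 514 kept their side of the threshold, 12 lost the call (Mx1, Dhx58, Ifi44 and Ifi35) and 2 gained one (Oasl1 and Herc6), and 27 members kept theirs under all 16. Members called lower numbered 26 with either TPM scale, 27 with DESeq2 and 28 to 30 with 1 library left out. Pathway genes called lower fell from 33 to 27 with either TPM scale and to 25 on log2(TPM + 1) without a filter. Those called higher fell from 6 to 4 with either TPM scale and to 3 on log2(TPM + 1) without a filter. The median of the members was -0.98 without a filter, -0.82 at a mean of at least 1 CPM, -0.57 on log2(TPM + 1), -0.86 on log2(TPM + 0.1), -0.56 on log2(TPM + 1) without a filter and -0.96 to -0.87 with 1 library left out. On log2(TPM + 1), whose pseudocount shrinks the fold changes of low genes, the medians were -0.54 for effectors (-0.52 without a filter), -0.69 for sensors, -0.57 for PARP members, -0.51 for the ISG15 system and regulators and -0.47 for other members, the last 4 the same without a filter. On log2(TPM + 0.1) they were -0.80 for sensors, -0.76 for PARP members, -1.22 for the ISG15 system and regulators and -0.85 for other members. Effectors had -1.30 without a filter. Counting double-stranded RNA binders and Trim25 with the sensors gave -0.70 for sensors and -1.77 for the ISG15 system and regulators. The medians here of effectors, the ISG15 set and other members include genes that passed the filter only through DMSO, which favours genes that are lower. The regrouped sensors hold Oas3, which passed in the same way. In the main test, without such genes, the medians were -0.82 for effectors, -0.61 for the ISG15 set and -0.71 for other members. With 1 library left out the medians were -1.51 to -1.35 for the ISG15 system and regulators, -0.96 to -0.86 for other members, -1.03 to -0.99 for effectors, -0.94 to -0.86 for sensors and -0.86 to -0.81 for PARP members. Without a filter 35 members were tested in place of 33, with Oas1a and Oas2 added on a few counts. The cause of the other shifts was not tested.

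Replicate numbers did not pair the libraries (correlations of same-numbered deviations from -0.04 to 0.09). With the replicate number as a block, 29 members were called lower and 1 higher, and the pathway list had 32 lower and 5 higher, with the calls of Trim12c and Trim34a lost (adjusted p = 0.0559 and 0.0621). Over all genes, 1620 were lower on log2(TPM + 1), 1615 on log2(TPM + 0.1), and 1284 lower and 1362 higher on log2(TPM + 1) without a filter. Library totals moved the median of all genes to 0.02. Members under 1 CPM rest on few counts per library, which limits the precision of their fold changes, and only 1 cell line at 1 time was measured.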
